A study of Mus musculus with 2 samples.

Results

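The Pax, Lhx, Nkx, Tbx, Irx and Fox genes and the sine oculis homeobox genes encode transcription factors that specify tissues and organs in the embryo, and the peaks of SRCAP around them were examined gene by gene. A gene was included when GENCODE vM21, on the mouse build GRCm38, lists it as protein-coding with a symbol of the Pax, Lhx, Nkx, Tbx, Irx or sine oculis families followed by a number, or Fox followed by 1 letter and a number. Foxa2 was left out by this rule. It selected 99 of 21951 protein-coding genes, made up of 43 Fox, 14 Nkx, 13 Tbx, 9 Pax, 8 Lhx, 6 Irx and 6 sine oculis homeobox genes. A promoter peak is a peak whose midpoint lies from 1000 bp upstream to 500 bp downstream of any transcription start site (TSS) of the gene, and the gene body with 20 kb on either side is called its territory.

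Mouse embryonic stem cells (mESCs) of the SYAT line were profiled by CUT&RUN, 1 library for each antibody. SYAT cells are CGR8 mESCs that carry the fluorescent protein YPet and the auxin-inducible degron AID on SRCAP from both alleles and that stably express the OsTir1 receptor, so that SRCAP can be degraded by indole-3-acetic acid (IAA). An antibody against GFP, which recognises the YPet tag, was used in the GFP library and an antibody against SRCAP itself in the other, each on 100000 cells fixed with 0.1% formaldehyde for 5 min. Both libraries come from the same tagged line, which is routinely kept in auxinole to prevent basal loss of SRCAP. The labels give its dose as 200 nM where the methods of the study write it in micromolar, and the labels give no IAA or other treatment for either library. The methods of the study mention CUT&RUN only with the SRCAP antibody and CUT&Tag with the GFP antibody, and the GFP library is called CUT&RUN here on the word of its label. The GFP list holds 28718 peaks and the SRCAP list 28167, with a median peak score of 47 in each, and read depth is unknown because the lists give no read counts. With no replicate, no difference below was tested, and the 95% intervals cover counting error only.

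SRCAP is the ATPase of the complex that exchanges H2A for H2A.Z in nucleosomes. In mESCs many genes for lineage transcription factors are held silent but poised, with CpG-rich promoters that carry H2A.Z and both activating and repressive histone marks, and they are switched on in particular tissues later. Pax proteins bind DNA through a paired domain, Lhx proteins combine LIM domains with a homeodomain, and Nkx, Irx and sine oculis proteins are further homeodomain families. Tbx proteins bind through the T-box and Fox proteins through the forkhead domain. Some Fox genes, such as Foxk1, Foxk2, Foxp1 and Foxo3, are expressed in many tissues. Foxd3, Foxh1 and Tbx3 are known from pluripotent cells or the early embryo.

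Of the promoter peaks of these genes that overlapped a peak of the other list, the 6 with the highest summed scores are shown. The sum served only to choose them, because the meaning of the score is not known. Each sequence is the stretch covered by both peaks, at most 300 bases around its middle, read 5′ to 3′ on the strand of the gene from the RefSeq sequence of GRCm38.p6. Capitals mark matches to any of 8 short consensus motifs, which were the NFY CCAAT box AGCCAAT and the SP/KLF box GGGGCGGGG in these stretches.
Foxp1 (chr6:99265896-99266195): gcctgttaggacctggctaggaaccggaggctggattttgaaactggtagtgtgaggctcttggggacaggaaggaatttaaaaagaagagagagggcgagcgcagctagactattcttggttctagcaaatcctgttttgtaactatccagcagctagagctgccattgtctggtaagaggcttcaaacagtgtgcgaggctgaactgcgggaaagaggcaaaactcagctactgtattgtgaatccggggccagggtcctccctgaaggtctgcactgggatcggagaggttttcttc
Tbx3 (chr5:119679902-119680198): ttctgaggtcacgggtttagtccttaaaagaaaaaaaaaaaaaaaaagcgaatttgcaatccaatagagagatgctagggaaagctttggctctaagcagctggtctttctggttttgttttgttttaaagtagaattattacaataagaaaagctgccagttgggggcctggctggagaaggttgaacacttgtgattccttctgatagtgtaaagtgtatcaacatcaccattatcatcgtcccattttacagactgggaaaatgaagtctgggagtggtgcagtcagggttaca
Foxp4 (chr17:47887713-47887980): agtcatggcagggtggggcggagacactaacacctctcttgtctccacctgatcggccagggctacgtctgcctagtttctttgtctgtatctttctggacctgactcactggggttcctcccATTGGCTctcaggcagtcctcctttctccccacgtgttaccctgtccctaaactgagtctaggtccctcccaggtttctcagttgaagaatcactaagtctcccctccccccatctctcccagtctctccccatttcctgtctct
Foxn3 (chr12:99412639-99412938): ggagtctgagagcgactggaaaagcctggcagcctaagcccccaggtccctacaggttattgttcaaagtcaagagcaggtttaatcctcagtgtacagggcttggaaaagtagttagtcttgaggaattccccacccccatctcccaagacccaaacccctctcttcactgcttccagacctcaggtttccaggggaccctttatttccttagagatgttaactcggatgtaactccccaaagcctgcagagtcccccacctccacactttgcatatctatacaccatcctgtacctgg
Pax9 (chr12:56695479-56695778): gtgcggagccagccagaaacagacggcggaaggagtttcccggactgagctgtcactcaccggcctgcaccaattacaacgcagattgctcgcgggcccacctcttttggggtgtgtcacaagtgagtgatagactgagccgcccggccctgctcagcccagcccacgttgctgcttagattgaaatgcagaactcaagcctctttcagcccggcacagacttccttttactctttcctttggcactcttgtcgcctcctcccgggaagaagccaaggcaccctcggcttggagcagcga
Nkx6-1 (chr5:101665353-101665649): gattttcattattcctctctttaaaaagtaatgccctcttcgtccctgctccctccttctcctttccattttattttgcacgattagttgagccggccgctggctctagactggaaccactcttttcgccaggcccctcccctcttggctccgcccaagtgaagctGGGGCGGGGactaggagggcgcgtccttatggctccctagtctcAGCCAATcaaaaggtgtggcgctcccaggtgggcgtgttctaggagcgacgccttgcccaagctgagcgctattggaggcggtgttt

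The stretches of Foxp1, Tbx3, Foxp4 and Foxn3 were poor in CpG, with 7, 3, 4 and 2 CpG dinucleotides and observed over expected ratios of 0.381, 0.271, 0.217 and 0.108. Those of Pax9 and Nkx6-1 held 16 and 15 CpG dinucleotides, with ratios of 0.626 and 0.651. The Foxp4 stretch contained 1 CCAAT box on the reverse strand, and the Nkx6-1 stretch contained 1 CCAAT box and 1 SP/KLF box. The 4 CpG-poor stretches and that of Pax9 lay at a TSS inside the gene. That TSS was 256 kb downstream of the outermost TSS in Foxp1, 151 kb in Foxn3, 36.5 kb in Foxp4, 9.58 kb in Tbx3 and 3.87 kb in Pax9.

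Promoter peaks were less frequent at these 99 genes than at protein-coding genes as a whole. The 99 genes also had fewer TSSs at which a peak could count, with a median of 2 distinct TSSs against 3, and the shares were not corrected for this. With the GFP antibody 23 of 99 had a promoter peak (23.2%, 95% CI 16.0 to 32.5), against 35.0% of all protein-coding genes. With the SRCAP antibody 29 had one (29.3%, 21.2 to 38.9), against 35.6%. At 13 genes a promoter peak was found with each antibody (13.1%, 7.84 to 21.2), against 27.0%. For the GFP list and for both lists together the interval ended below the share of all genes, whereas for the SRCAP list it included it. In total 39 genes had a promoter peak with either antibody (39.4%, 30.3 to 49.2, against 43.6%) and 60 had none (60.6%, 50.8 to 69.7, against 56.4%). Both of these intervals included the share of all genes. Strong promoter peaks were rarer still, since 8 genes in each list had one at or above the median score (8.08%, 4.15 to 15.1), against 22.2% of all genes with GFP and 23.5% with SRCAP. Between them these were 12 genes (12.1%, against 29.7%), and 87 had no such peak in either list (87.9%, against 70.3%). Only 4 genes, Foxn3, Foxp4, Nkx6-1 and Tbx3, reached the median in both lists (4.04%, 1.58 to 9.93), against 16.0%.

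Tbx3, a repressor tied to naive pluripotency, had 2 promoter peaks in each list. The peak at its outer TSS, chr5:119670737-119670960 in the GFP list, scored 52 there and 58 with the SRCAP antibody (chr5:119670737-119671029). The peak at the inner TSS scored 95 with GFP (chr5:119679880-119680216) and 116 with SRCAP (chr5:119679902-119680198). Foxp4, a forkhead repressor, scored 69 with GFP (chr17:47887397-47887980) and 129 with SRCAP (chr17:47887713-47888015). The inner TSS of Tbx3 and the TSS at the Foxp4 peaks are not those of protein-coding transcripts. Foxn3, also a forkhead repressor, scored 82 (chr12:99412490-99413088) and 83 (chr12:99412459-99413165). Nkx6-1, which acts in pancreatic beta cells and the ventral neural tube, scored 76 (chr5:101665353-101665649) and 57 (chr5:101665327-101665670). All of these pairs overlapped.

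Among the other genes in both lists, Pax9, needed for teeth and the thymus, scored 45 with GFP (chr12:56695274-56695790) and 92 with SRCAP (chr12:56695469-56695847). Irx6 scored 46 (chr8:92673382-92673628) and 64 (chr8:92673277-92673898). Foxa3, a regulator of gut endoderm and liver, scored 51 (chr7:19023683-19024343) and 29 (chr7:19023676-19024344), but its peak was nearer to a TSS of the adjacent gene Sympk. Lhx5, a forebrain gene, scored 34 (chr5:120430771-120430975) and 36 (chr5:120430772-120430981). Foxk2, broadly expressed, scored 26 (chr11:121259351-121259627) and 18 (chr11:121259446-121259599). For each of these genes the peaks overlapped between lists, and for Lhx5 and Foxk2 both scores were below the median.

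In Foxp1 and Pax6 the promoter peaks of the lists were at different TSSs. Foxp1 had its SRCAP promoter peak at an internal TSS (chr6:99265743-99266647, score 129) and its GFP promoter peak at the outermost TSS (chr6:99523234-99523476, score 20). The SRCAP peak nevertheless overlapped a GFP peak with a score of 123 (chr6:99265667-99266349), whose midpoint, 507 bp from the TSS, fell just beyond the promoter window. Pax6, a master regulator of the eye, had a GFP peak at chr2:105677629-105677896 (score 46) and SRCAP peaks at chr2:105668600-105668799 (score 35) and chr2:105675353-105675577 (score 40). At Pax6 none of the promoter peaks overlapped a peak of the other list.

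A promoter peak was found only in the GFP list at 10 genes (10.1%, 5.58 to 17.6), against 7.98% of all protein-coding genes, which the interval included. The strongest were Six4 (chr12:73113380-73113661, score 81) and Foxo6 (chr4:120287874-120288220, score 76), followed by Tbx15 (chr3:99253078-99253276, score 48). The other 7 scored 23 to 46 and were Tbx18, Six6, Foxr1, Foxh1, Pax5, Foxi3 and Tbx6. They include Foxh1, the partner of SMAD proteins in Nodal signalling, Pax5, the regulator of B cell identity, Six6, an eye and pituitary gene, and Tbx6, a regulator of paraxial mesoderm.

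The SRCAP list alone had a promoter peak at 16 genes (16.2%, 10.2 to 24.7), against 8.63% of all protein-coding genes, and the interval lay above that share. Only Lhx8, which acts in cholinergic neurons of the forebrain and in oocytes, scored above the median (chr3:154330258-154330485, score 53). The other 15 scored 16 to 45 and were Tbx20, Foxd1, Foxo3, Foxk1, Irx1, Lhx3, Foxb1, Foxj2, Six5, Lhx6, Lhx2, Foxe1, Pax1, Foxs1 and Nkx2-9. Among these, Tbx20 acts in the heart, Foxd1 in the stroma of the kidney, Lhx3 in the pituitary and motor neurons, Lhx6 in cortical interneurons, Lhx2 in the eye and cortex, Foxe1 in the thyroid and Pax1 in the sclerotome. In the plot of scores by gene the 26 genes of a single list sit mostly beneath the median line, with 4 of them above it.

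**Figure D1:**
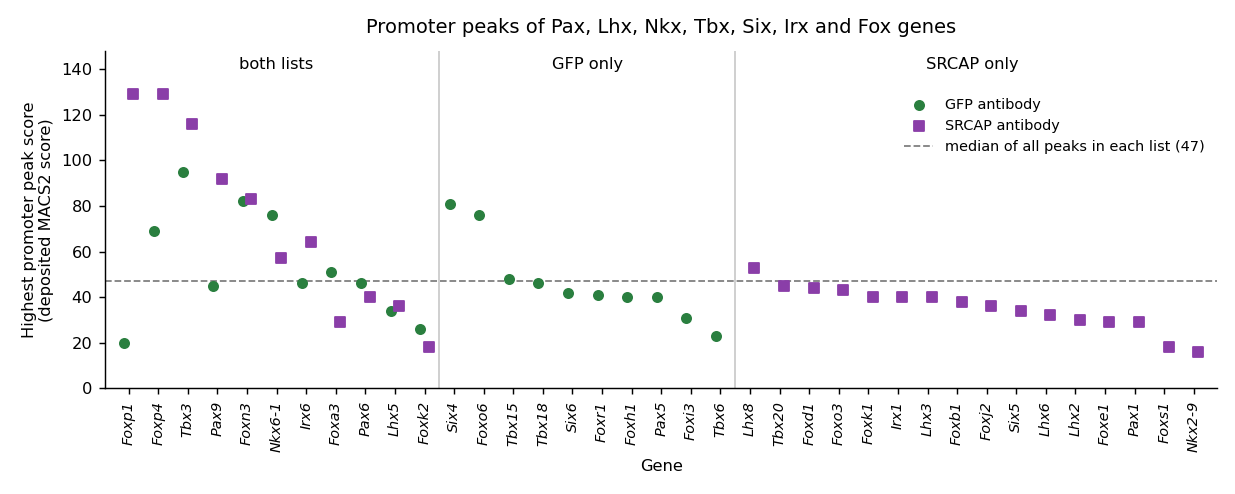
Of the 39 genes with a promoter peak, 37 are shown along the horizontal axis, and the vertical axis gives the highest score of its promoter peaks in the deposited list (circles for the GFP antibody, squares for the SRCAP antibody). The dashed line is the median score of each list, 47, and 4 genes (Foxp4, Tbx3, Foxn3 and Nkx6-1) lie above it with both antibodies.

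The families differed in which antibody gave promoter peaks, but with 6 to 43 genes each their counting intervals were wide. Of 8 Lhx genes, 5 had a promoter peak with SRCAP (62.5%, 30.6 to 86.3) and 1, Lhx5, with GFP (12.5%, 2.24 to 47.1). Of 13 Tbx genes, 4 had one with GFP (30.8%, 12.7 to 57.6) and 2 with SRCAP (15.4%, 4.33 to 42.2). Among Pax genes 3 of 9 had one in each list, among sine oculis genes 3 and 2 of 6, among Irx genes 1 and 2 of 6, and among Nkx genes 2 and 3 of 14. Of 43 Fox genes, 9 had a GFP promoter peak (20.9%, 11.4 to 35.2) and 12 a SRCAP promoter peak (27.9%, 16.7 to 42.7). The Lhx and Tbx intervals of both antibodies overlapped, and all protein-coding genes stood at 35.0% (GFP) and 35.6% (SRCAP).

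The Fox genes were divided by textbook expression. Of 12 broadly expressed Fox genes, 4 had a promoter peak with GFP (33.3%, 13.8 to 60.9), namely Foxk2, Foxn3, Foxp1 and Foxp4. With SRCAP these 4 and Foxj2, Foxk1 and Foxo3 had one (7 genes, 58.3%, 32.0 to 80.7). All protein-coding genes stood at 35.0% and 35.6%, inside these intervals. With TSSs of protein-coding transcripts only, 2 of the 12 had one with GFP (16.7%, against 33.1%) and 6 with SRCAP (50.0%, against 33.8%). Of the other 29 Fox genes outside the early list, 4 (13.8%, 5.50 to 30.6) and 5 (17.2%, 7.60 to 34.5) had one at any TSS. The SRCAP intervals of both Fox groups overlapped slightly. The 12 broadly expressed genes have from 1 TSS (Foxo1) to 22 (Foxp1), whereas most of the other 29 have 1. These shares were not corrected for the number of TSSs or for gene length. The SRCAP promoter peaks of Foxj2, Foxn3, Foxp1 and Foxp4 lay at internal TSSs. Over all families, the 84 lineage-restricted genes had promoter peaks at 17 with GFP (20.2%, 13 to 30.0) and 21 with SRCAP (25%, 17.0 to 35.2), each interval ending below the share of all protein-coding genes. Of the 3 genes of the early list, Tbx3 had promoter peaks in both lists, Foxh1 in the GFP list and Foxd3 in neither.

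Related genes outside the symbol rule gave counts of similar size. Of 15 such relatives (T, Eomes, Tbr1, Mga, Isl1, Isl2, Lmx1a, Lmx1b, Hmx1, Hmx2, Hmx3, Msx1, Msx2, Msx3 and Mkx), 3 had a promoter peak with GFP (Isl2, Mga and Msx3) and 6 with SRCAP (those 3, Hmx3, Mkx and Msx1). Hox genes, the class of developmental regulators most like these, had fewer. Only 1 of 39 Hox genes had a GFP promoter peak (2.56%, 0.454 to 13.2) and 4 had a SRCAP promoter peak (10.3%, 4.06 to 23.6), and in the GFP list the Hox interval lay below that of the 99 genes.

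**Figure D2:**
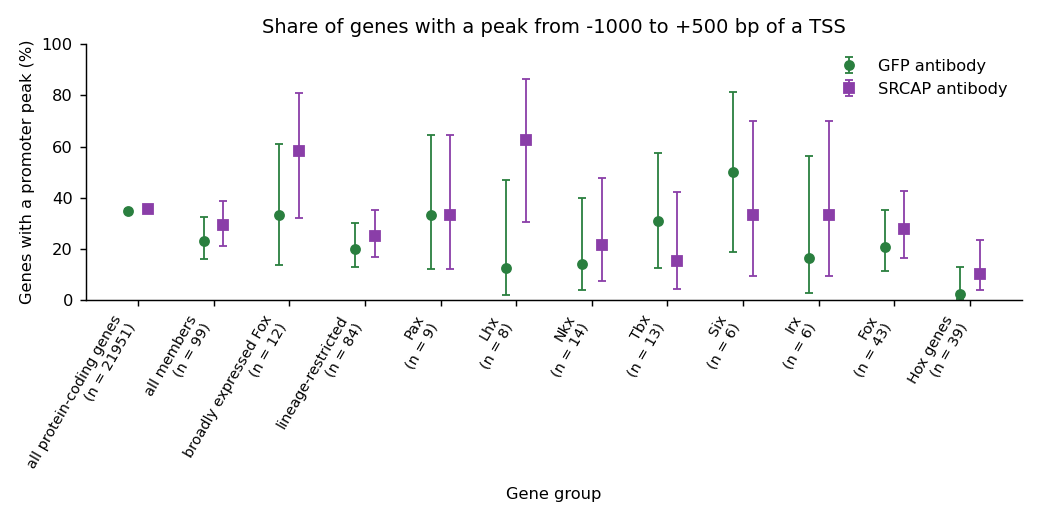
The vertical axis gives the percentage of genes with a promoter peak in each gene group named along the horizontal axis, with 95% Wilson intervals as bars, circles for the GFP antibody and squares for the SRCAP antibody. All members means the 99 genes described here, which stood at 23.2% and 29.3%, while all protein-coding genes stood at 35.0% and 35.6%.

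Where these genes did have a promoter peak, it was mostly upstream of the TSS, as at other genes in this window, which reaches farther upstream than downstream. The midpoint was upstream in 22 of 24 cases with GFP (91.7%, 74.2 to 97.7), against 71.5% over all protein-coding genes, and this interval lay above that share. With SRCAP it was upstream in 24 of 33 (72.7%, 55.8 to 84.9), against 71.6%. The median positions were -224 bp with GFP and -199 bp with SRCAP, against -129 and -92.0 bp. The TSS nearest to the midpoint belonged to the gene itself in 23 of 24 and 30 of 33 cases. The exceptions were Foxa3 in both lists, Foxb1 (nearest to B230323A14Rik) and Foxe1 (nearest to Gm12446) in the SRCAP list. More of these peaks than usual sat at an internal TSS, over 1000 bp from the outermost one, with 8 of 24 for GFP (33.3%, 18 to 53.3) and 12 of 33 for SRCAP (36.4%, 22.2 to 53.4), against 18.8% and 18.4% over all protein-coding genes. The GFP interval just included the share of all genes and the SRCAP interval did not. Among the 9 SRCAP promoter peaks at or above the median score, 5 were at internal TSSs, those of Foxp1, Foxp4, Foxn3, Pax9 and Tbx3.

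Some genes fell just outside the promoter window. Without a GFP promoter peak, 9 genes had their nearest GFP peak within 2500 bp of a TSS, led by Tbx1 at 790 bp, Foxp3 at 903 bp, Nkx2-2 at 1041 bp and Foxn2 at 1207 bp. In the SRCAP list 9 genes did so, led by Foxp3 at 897 bp, Tbx15 at 904 bp, Lhx1 at 1163 bp and Foxn2 at 1218 bp. The Foxp3 peaks lay at the promoters of Flicr and Ppp1r3f. With a window of 2500 bp either side, 32.3% of the 99 genes had a GFP promoter peak (23.9 to 42.0), against 41.6% of all protein-coding genes. For SRCAP it was 38.4% (29.4 to 48.2), against 41.9%. Just inside the promoter window were Lhx5, with midpoints 826 bp (GFP) and 823 bp (SRCAP) upstream, Tbx6 at 816 bp in the GFP list and Nkx2-9 at 965 bp in the SRCAP list.

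Among genes classed as CpG-rich, these genes had a promoter peak at any TSS less often than all protein-coding genes. For CpG-poor genes the small number left wide intervals. The class of a gene came from a single TSS, and the peak need not lie there. Promoters, from 250 bp before to 50 bp after the TSS, were called CpG-rich at an observed over expected CpG ratio of at least 0.6 with at least 55% GC, using the TSS with the highest ratio of each gene, a division chosen after the data were seen. By this measure 63 of the 99 genes were CpG-rich (63.6%), against 49.3% of all protein-coding genes, and their median ratio was 0.754 against 0.695. Of the 63, 19 had a GFP promoter peak (30.2%, 20.2 to 42.4), against 51.6% of all CpG-rich genes. With SRCAP 22 had one (34.9%, 24.3 to 47.2), against 52.9%, and 11 had one in both lists (17.5%, 10.0 to 28.6), against 40.5%. All 3 intervals ended below the share of all CpG-rich genes. Of the 36 CpG-poor genes, 4 (11.1%, 4.41 to 25.3) and 7 (19.4%, 9.75 to 35.0) had a promoter peak, against 18.8% and 18.9%, and 2 had one in both lists (5.56%, 1.54 to 18.1), against 14%. Here all 3 intervals included the share of all CpG-poor genes, although for GFP and for both lists the values lay below it. Among the most CpG-rich promoters, picked out after their values were seen, several belonged to genes without a promoter peak in either list. These included Foxp2 (ratio 1.15), Six2 (1.15), Foxj3 (1.10) and Foxm1 (1.09). The highest ratios of all were at Foxk2 (1.28) and Foxp1 (1.21), which had promoter peaks with both antibodies. In Foxp1 the stronger of these peaks, with SRCAP, covered a CpG-poor stretch at an internal TSS. Of the 21 CpG-rich Hox genes, 1 and 2 had a promoter peak.

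**Figure D3:**
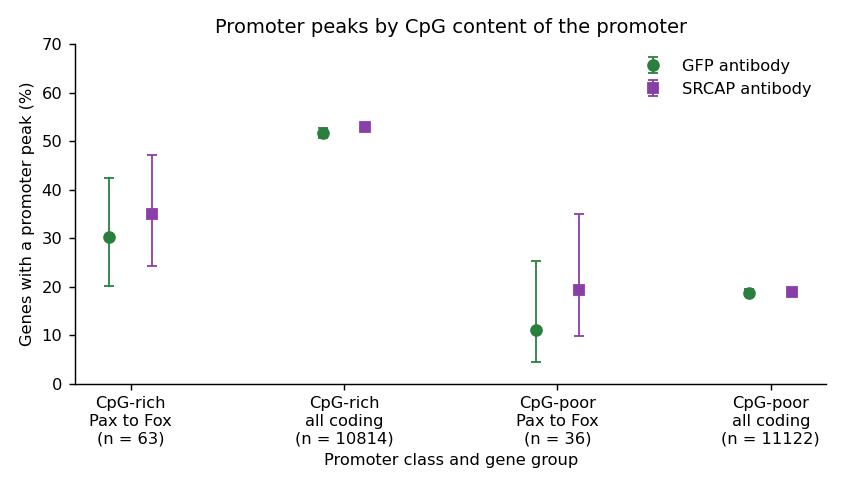
The vertical axis gives the percentage of genes with a promoter peak at any TSS, with 95% Wilson intervals. Genes were classed as CpG-rich or CpG-poor by their TSS with the highest CpG ratio. The 99 genes described here (labelled Pax to Fox) stand beside all protein-coding genes. Among CpG-rich genes the Pax to Fox genes stood at 30.2% (GFP) and 34.9% (SRCAP), under the 51.6% and 52.9% of all protein-coding genes.

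Away from the TSS the shortfall against other genes shrank, and the shares then passed those of all genes, at a shorter distance with SRCAP than with GFP. Most intervals beyond that point still included the share of all genes. Within 0.5 kb of a TSS 13.1% of the 99 genes had a GFP peak, against 32.4% of all protein-coding genes, and 22.2% had a SRCAP peak, against 33.5%. Within 5 kb the shares were 36.4% (27.6 to 46.2) against 47.5% for GFP and 49.5% (39.9 to 59.2) against 47.4% for SRCAP. Within 20 kb they were 61.6% (51.8 to 70.6) against 64.5% and 75.8% (66.5 to 83.1) against 65.0%, where the SRCAP interval lay above the share of all genes. Within 50 kb they were 81.8% (73.1 to 88.2) against 77.3% and 85.9% (77.7 to 91.4) against 78.1%, and both intervals included the share of all genes. The nearest peak was at a median of 13.1 kb with GFP, against 6.5 kb for all genes, and at 5.43 kb with SRCAP, against 6.38 kb. Hox genes had the same pattern in steeper form, with a median of 18.5 kb for GFP and 4.06 kb for SRCAP.

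**Figure D4:**
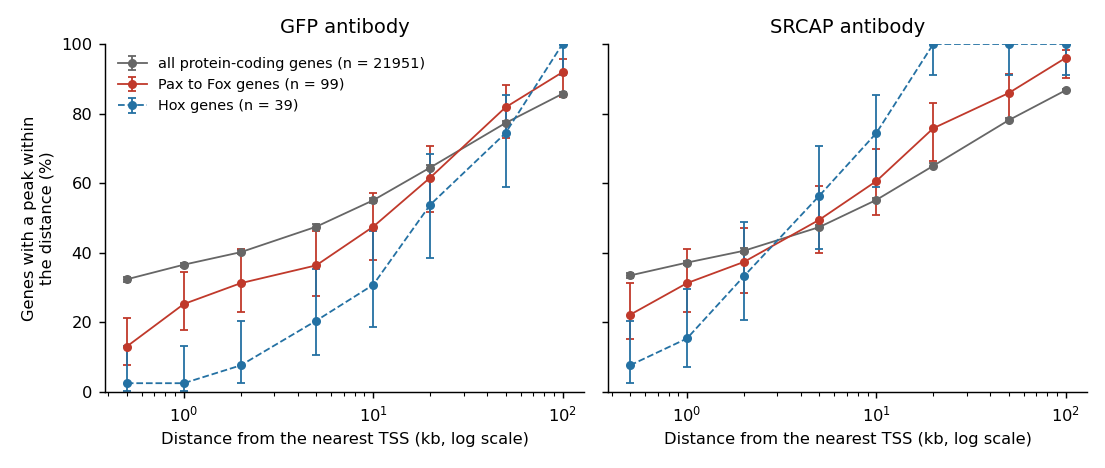
The horizontal axis gives the distance from any TSS of the gene in kb on a log scale and the vertical axis the percentage of genes with a peak midpoint within it, with 95% Wilson intervals, for the 99 Pax to Fox genes, all protein-coding genes and Hox genes. The Pax to Fox genes start under all genes at 0.5 kb in both panels. In the SRCAP panel their values stand above all genes from 5 kb on (49.5% against 47.4%), although at 5 kb the interval (39.9 to 59.2) includes all genes.

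In the territories, 65 of 99 genes had at least 1 GFP peak (65.7%, 55.9 to 74.3), against 69.7% of all protein-coding genes. With SRCAP 77 had one (77.8%, 68.6 to 84.8), against 70.4%, and 58 had one in both lists (58.6%, 48.7 to 67.8), against 63.2%. All 3 intervals included the share of all genes, although the 99 genes were shorter, with a median length of 8.08 kb against 17.4 kb. More SRCAP than GFP peaks were found at 43 genes (43.4%, 34.1 to 53.3), against 25% of all protein-coding genes. More GFP peaks were found at 20 (20.2%, 13.5 to 29.2, against 28.4%) and equal numbers at 36 (36.4%, 27.6 to 46.2, against 46.6%). At least 2 SRCAP peaks lay in 48 territories (48.5%, 38.9 to 58.2, against 46.8%) and at least 2 GFP peaks in 33 (33.3%, 24.8 to 43.1, against 47.3%). The 15 genes with no peak of either list in the territory (15.2%, 9.40 to 23.5, against 23.0%) were Foxb2, Foxi1, Foxi2, Foxm1, Foxp2, Foxq1, Irx2, Lhx4, Lhx9, Nkx2-5, Nkx6-2, Pax4, Tbx5, Tbx19 and Tbx22. Nkx2-5 and Tbx5 are regulators of the heart, and Foxp2, a brain gene of 540629 bp, had its nearest GFP peak 401 kb and its nearest SRCAP peak 355 kb from a TSS. Foxm1, a broadly expressed gene of the cell cycle, had its nearest GFP peak 28.0 kb away.

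The 4 territories with the most peaks were those of broadly expressed Fox genes, by counts not adjusted for length. Per Mb, the territories of all 12 such genes held 23.2 GFP peaks (17.0 to 30.9), against 18.2 for the 99 genes. They held 20.1 SRCAP peaks per Mb (14.4 to 27.4), against 22.8. Foxp1, which spans 597384 bp, had 12 GFP and 9 SRCAP peaks, of which 6 in each list were shared. Foxn3 (373505 bp) had 9 and 7, with 5 shared, and Foxp4 had 6 and 5, with 4 shared. Foxn2, with 6 and 3, had no score above 45. The next were Foxd3 and Foxj2 with 3 GFP and 5 SRCAP peaks each, Foxc2 and Pax6 with 4 and 4, and Tbx10 with 4 and 3.

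Several of the strongest territory peaks lay in flanks or gene bodies, away from promoters. Foxd3, which acts in pluripotent cells and in the neural crest, had no promoter peak, yet one of the strongest flanking peaks was in its territory at chr4:99641721-99642395, 12925 bp from the nearest TSS (Gm12688), with a score of 221 for GFP and 157 for SRCAP. Foxd3 had 2 further shared flanking peaks and 2 found only with SRCAP. Downstream of Six4 a shared peak scored 157 and 135 (chr12:73085684-73086261), 27453 bp from the Six4 TSS. Between Foxc2 and Foxl1, near the latter, a shared peak scored 160 and 130 (chr8:121125405-121125830), with its midpoint 2323 bp from the Foxl1 TSS. In Foxj3 a GFP peak inside the gene scored 132 (chr4:119592355-119592714) and the SRCAP list had no peak in the whole territory. In the opposite way, Nkx6-3 had a SRCAP peak with a score of 170 in its flank (chr8:23169044-23169473), 10969 bp from the nearest TSS (Gpat4), and no GFP peak in its territory.

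In each list the highest score in these territories, 285 with GFP and 226 with SRCAP, was at a promoter of another gene. The highest flank peaks scored 221 with GFP and 170 with SRCAP, above most of the promoters of other genes named here. The territory of Foxh1 included a peak at the Kifc2 and Cyhr1 promoters with scores of 285 (GFP) and 121 (SRCAP). That of Tbx10 included the Ndufv1 promoter (126 and 226) and the Nudt8 promoter (225 and 90). The Irf2bp1 promoter (126 and 159) lay in the territory of Foxa3, the Dmwd promoter (168 and 113) in that of Six5, and the Gm5112 promoter (157 and 104) in that of Foxj2. The Crnde promoter (75 and 142) lay in the territory of Irx5. Of 136 GFP peaks in the territories, 24 were at a promoter of the 99 genes, 37 in their gene bodies, 52 in flanks and 23 at promoters of other genes. Of 170 SRCAP peaks the numbers were 33, 46, 63 and 28. Peaks at promoters of other genes had the highest median scores, 61.0 with GFP and 53.0 with SRCAP, where those at promoters of the 99 genes had 45.5 and 40.

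Genes that lie within 100 kb of each other formed 10 groups with 23 genes. The Foxf1, Foxc2 and Foxl1 group had no promoter peak at any of its genes but 4 GFP and 5 SRCAP peaks, and all 4 GFP peaks were shared. In the group of Nkx2-1, Nkx2-9 and Pax9 there were 2 GFP and 5 SRCAP peaks, with 2 shared. Both GFP and SRCAP lists had little at Foxq1 and Foxf2 (0 and 1 peaks), at Foxd2 and Foxe3 (0 and 2) and at Nkx2-4 and Nkx2-2 (1 and 2).

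Per length of sequence, the surplus of SRCAP peaks lay mostly in peaks of low score and in peaks without a GFP partner. The territories of the 99 genes cover 7.46 Mb once overlaps are merged. They held 18.2 GFP peaks per Mb (15.3 to 21.6), against 15.9 in the territories of all protein-coding genes, and 22.8 SRCAP peaks per Mb (19.5 to 26.5), against 15.4. At or above the median score the densities were 8.71 (6.72 to 11.1) against 7.97 for GFP and 8.85 (6.84 to 11.3) against 7.96 for SRCAP, and both intervals included the value of all genes. Below the median score they were 9.52 (7.43 to 12.0) against 7.89 for GFP and 13.9 (11.4 to 16.9) against 7.43 for SRCAP. Shared peaks were at 9.65 per Mb in the SRCAP list (7.55 to 12.2), against 9.00, whereas SRCAP peaks without a GFP partner were at 13.1 (10.7 to 16.0), against 6.39. GFP peaks without a SRCAP partner were at 8.71 (6.72 to 11.1), against 6.91. In Hox territories the same classes gave 37.2 SRCAP peaks per Mb below the median (23.6 to 55.9) and 34.0 without a partner (21.0 to 52.0). There the shared peaks (19.4, 10.0 to 33.9) were also denser than in all genes, and those at or above the median stood at 16.2 (7.76 to 29.8).

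**Figure D5:**
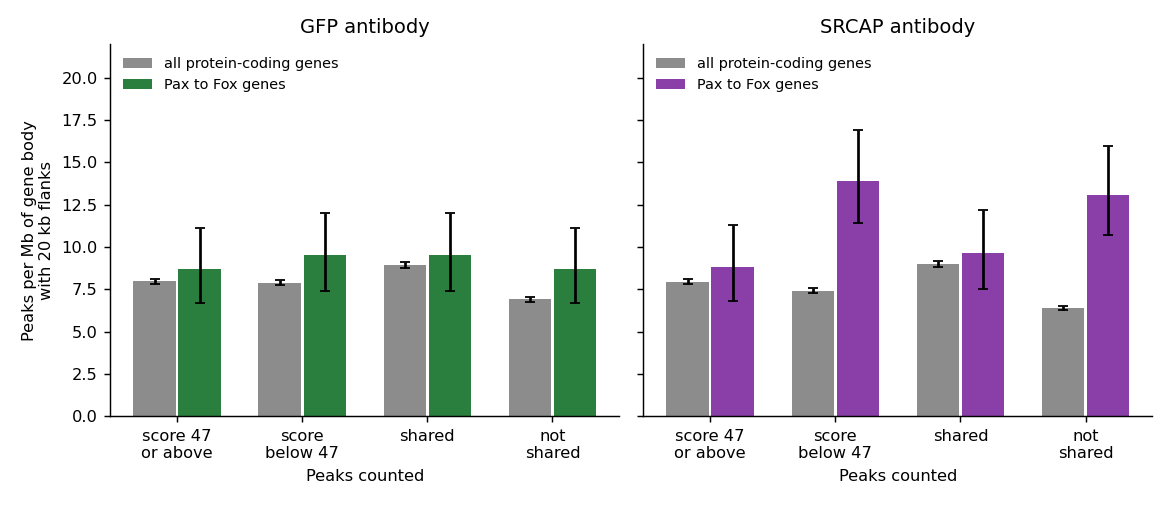
Bars give the number of peaks per Mb of gene body with 20 kb flanks, counted once where territories overlap, for the Pax to Fox genes (coloured) and all protein-coding genes (grey), with exact Poisson 95% intervals, for peaks by score and by whether the other list has an overlapping peak. In the SRCAP panel the coloured bars stand above the grey ones below a score of 47 (13.9 against 7.43) and for peaks that are not shared (13.1 against 6.39).

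Agreement between antibodies was accordingly lower here. Of the 136 GFP territory peaks 71 overlapped a SRCAP peak (52.2%, 43.9 to 60.4), against 56.2% of all GFP peaks. Of the 170 SRCAP territory peaks 72 overlapped a GFP peak (42.4%, 35.2 to 49.9), against 57.7% of all SRCAP peaks, and of these intervals the SRCAP interval alone excluded the value of all peaks. At promoters of the 99 genes 11 of 24 GFP peaks (45.8%, 27.9 to 64.9) and 12 of 33 SRCAP peaks (36.4%, 22.2 to 53.4) were shared, against 68.8% and 68.4% of promoter peaks of all protein-coding genes, and both intervals ended below those shares. Among SRCAP promoter peaks below the median score 4 of 24 were shared (16.7%, 6.68 to 35.9), against 48.0%, while 8 of 9 at or above it were (88.9%, 56.5 to 98.0), against 81.4%. Over all SRCAP territory peaks, 30 of 104 below the median were shared (28.8%, 21.0 to 38.2), against 39.6% of all such peaks. At or above it 42 of 66 were shared (63.6%, 51.6 to 74.2), against 74.4%. Both of these territory intervals ended just below the share of all SRCAP peaks.

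The SRCAP peaks without a GFP partner were also richer in CpG than such peaks elsewhere. In 500 bp windows at their midpoints the 98 peaks had a median GC content of 54.2% and a median CpG ratio of 0.436, against 50.2% and 0.282 over all SRCAP peaks without a partner. The 65 GFP peaks without a partner had 50.2% and 0.311, against 48.4% and 0.270. Shared territory peaks had ratios of 0.448 (GFP) and 0.435 (SRCAP), against 0.337 and 0.338 over all shared peaks. Territory peaks were seldom repeats, with 3 of 136 GFP peaks (2.21%) and 5 of 170 SRCAP peaks (2.94%) covered by repeats over at least 50% of their length, against 11.6% and 11.9% of all peaks.

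Short motifs were searched on both strands in the central 200 bp of each peak. The CTCF core CNAGNNGGC was in 15 of 136 GFP territory peaks (11.0%, 6.80 to 17.4, against 14.1% of all GFP peaks) and 31 of 170 SRCAP peaks (18.2%, 13.2 to 24.7, against 16.8%). The forkhead motif GTAAACA, which Fox proteins bind, was in 5 (3.68%, against 3.06%) and 6 (3.53%, against 2.71%), and the T-box site AGGTGTGA in 2 (1.47%, against 0.797%) and 3 (1.76%, against 0.930%). The SP/KLF box GGGGCGGGG was in 7 of 136 (5.15%, 2.52 to 10.2, against 2.45%) and 7 of 170 (4.12%, 2.01 to 8.25, against 3.23%). The CCAAT box AGCCAAT was in 3 of 24 GFP (12.5%, 4.34 to 31.0) and 5 of 33 SRCAP promoter peaks of the 99 genes (15.2%, 6.65 to 30.9), against 8.26% and 9.39% of promoter peaks of all protein-coding genes. YY1 (AAGATGGC), ETS (CCGGAAGT) and NRF1 (GCGCATGCG) motifs were each in at most 4 territory peaks of a list. Among the territory peaks only the SP/KLF box with GFP had an interval that excluded the share in all peaks of its list, by a narrow margin. The CCAAT intervals at promoter peaks included the shares of promoter peaks of all protein-coding genes.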

How the data were processed

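CUT&RUN peak lists of 2 libraries, 1 with the GFP and 1 with the SRCAP antibody, were assigned to an antibody from their titles. The authors deposited a start, end and whole-number score per peak, with peak names that carry MACS2. The submitters' processing notes also name STAR, Picard and the builds mm10 and dm6. The study describes MACS2 calling without ENCODE blacklisted regions, and an input control, for its other assays. Whether both apply to CUT&RUN, and the meaning of the score (minimum 13 in both lists), were not given in the sources used here, and these choices decide which weak peaks are listed. The score was used only within a list or for pairs of overlapping peaks.

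Promoters were taken at the TSSs of all 141767 GENCODE vM21 transcripts, with each peak placed at its midpoint. An overlap of at least 1 bp with a peak of the other list made a peak shared. Sequences, GC and CpG came from RefSeq GRCm38.p6, with promoter sequence for all 99 genes. Shares carry Wilson and densities exact Poisson 95% intervals, without a significance test. Gene lists by expression (12 broadly expressed Fox genes, 3 early genes) came from textbook knowledge. Genes were named by a rule: every gene with a promoter peak, with coordinates if in both lists or at or above the median score, the 10 with the most territory peaks, those of the 10 highest territory peaks per list, and those without a peak. The genes, lists and rule were chosen with earlier results of these data known, and the CpG classes, internal TSSs, neighbour groups and densities by score were added after the data were seen. Alternatives for the score, windows, flanks, TSS set, overlap rule and chromosome 8 are given at the end. Python 3.11.15, numpy 2.4.6, pandas 2.3.3, scipy 1.17.1, pysam 0.24.0 and matplotlib 3.10.9 were used, and the counting steps were tested on simulated data. Values of some single genes are not reported here, although these genes are kept in all counts.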

Additional observations from a re-analysis of the deposited data

How the results depend on the processing

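Of 108 alternative values over 29 results, 78 lay inside the 95% interval given with the result and 30 lay outside. The cause of the shifts was not tested, beyond fewer peaks, narrower windows or shorter flanks by construction. No paired analysis was possible because there was only 1 library to each antibody. In all 20 alternatives the promoter shares stayed below those of all protein-coding genes, with the interval ending below in 13. Peaks at or above the median score gave promoter shares of 8.08% (GFP), 8.08% (SRCAP) and 4.04% (both), against 22.2%, 23.5% and 16.0% of all genes. Territory shares were then 44.4% (GFP, against 53.5%) and 47.5% (SRCAP, now below the 54.0% of all genes). Densities were 8.71 and 8.85 per Mb, and the shared share of SRCAP peaks was 53.0% (58.0% of all). By family this setting gave 0% (Pax), 0% (Lhx), 16.7% (sine oculis), 0% (Irx) and 9.30% (Fox) with GFP, against 22.2% of all genes. With SRCAP it gave 11.1% (Pax), 12.5% (Lhx), 7.14% (Nkx), 0% (sine oculis) and 6.98% (Fox), against 23.5%. Broadly expressed Fox genes fell to 25% with SRCAP, and lineage-restricted genes to 5.95% and 4.76%. A window of 500 bp either side gave 13.1% for GFP (against 32.4% of all genes) and 7.07% for both lists (against 24.9%). One of 2500 bp gave 21.2% for both (against 32.5%). Flanks of 5 kb gave territory shares of 46.5% (GFP, 37.0 to 56.2, against 57.1% of all genes) and 64.6% (SRCAP, 54.8 to 73.4, against 57.4%). Here the GFP interval ended below the share of all genes. Flanks of 50 kb gave 84.8% (GFP, now above the 79.7% of all genes) and 85.9% (SRCAP, against 80.5%). Without peaks at promoters of other genes the densities were 15.1 and 19 per Mb. No value of all genes was computed for this setting, so these densities show neither a surplus nor a shortfall. Leaving out chromosome 8, which holds 2555 GFP and 2965 SRCAP peaks, left each of the 9 results run that way within its interval. For SRCAP the density stayed above that of all genes in 4 of 4 alternatives and its interval in 3, the exception being the higher-scoring peaks. For GFP the shared share exceeded that of all peaks under a reciprocal overlap of 50% (44.1% against 42.5%). Depth is unknown, so the absence of a peak sets no upper limit on binding.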
